A study of Mus musculus with 7 samples.

Results

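The transcripts described here are those of the TRAIL and Fas death systems together with Relt and its relatives among the TNF receptors. They are 2 ligands (Tnfsf10, which encodes TRAIL, and Fasl), 6 receptors (Tnfrsf10b, Fas, Tnfrsf21, Tnfrsf25, Tnfrsf12a and Relt), the initiator caspase Casp8 and its regulator Cflar. They were taken by name, through their Entrez numbers, and all 10 were found among the 27179 genes of the expression table. The choice was made with earlier results from these libraries known, since Tnfsf10 and Relt were among the genes with the smallest p in the mimic against control comparison. The differences given below are therefore a description of these 7 libraries. Whole ankles, without skin, were taken from mice of the DBA1 strain in which arthritis had been induced with collagen. In the control group (n = 3, replicates 2, 3 and 5) the joint was injected with a lipid carrier holding an irrelevant microRNA, and in the mimic group (n = 4, replicates 1, 2, 4 and 5) with the same kind of carrier holding a miR-17-5p mimic. All ankles thus carried induced arthritis and an injected lipoplex, with no healthy or uninjected group, and the labels give neither the dose nor the time after injection nor the age of the mice. The labels leave unsaid whether each ankle is from its own mouse, so the spread between libraries may be partly technical.

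TRAIL and Fas ligand are trimeric ligands of the TNF superfamily that bind receptors carrying a cytoplasmic death domain. A bound receptor recruits the adaptor FADD, which gathers caspase-8, and caspase-8 then starts the proteolytic cascade. The protein FLIP, encoded by Cflar, resembles caspase-8 but lacks its catalytic activity and sets the threshold for killing at the same complex. In the inflamed joint the system is known for the resistance of synovial fibroblasts to Fas killing and for the removal of infiltrating leukocytes. TNF receptors without a death domain, such as Relt and Tnfrsf12a, signal through adaptors of other kinds.

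The injected microRNA and its relatives of the same family share the seed, bases 2 to 8, which is shown in capitals because any direct pairing with the transcripts below would start there. The mature sequences, from RefSeq on GRCm38.p6, are as follows.
mmu-miR-17-5p: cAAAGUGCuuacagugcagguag
mmu-miR-20a-5p: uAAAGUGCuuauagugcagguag
mmu-miR-106b-5p: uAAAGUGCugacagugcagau
The endogenous mouse copy of miR-17-5p lies on chromosome 14 (115043684 to 115043706, plus strand).

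The ligand Tnfsf10 stood higher in the mimic ankles, whereas Fas, Relt, Tnfrsf21, Tnfrsf12a and Tnfrsf10b stood lower. Tnfsf10 had a mean of 5.64 ± 0.59 FPKM (SD, n = 4) in mimic and 3.25 ± 0.30 FPKM (SD, n = 3) in control ankles, and Fas 10.9 ± 0.48 and 16.1 ± 2.91 FPKM. Casp8 and Cflar, which act below the receptors, differed little, with overlapping groups. FPKM are reads per kilobase of joined exon, scaled to the total of assigned reads. The limma fit used log2(FPKM + 0.5) and covered the 13418 genes that averaged 1 FPKM or more. Of the 9 described genes in it, 0 were called higher and 0 lower with an adjusted p under 0.05, as were 0% of all genes. Their adjusted p ran from 0.173 to 0.721. At an unadjusted p under 0.05 there were 2 higher (7.48% of all genes tested) and 5 lower (10.1%). Limma-voom on recovered reads likewise called 0 and had 7 at that level, beside 2362 of all 13418 genes. With the replicate number added to the fit as a block 4 were at that level, beside 1064 of 13418 genes. Over the fits that left out 1 library the number at that level was between 5 and 8. The 5 came without control replicate 3 (1659 of 13425 genes) and the 8 without control replicate 2 (3831 of 13422 genes). The share over all genes thus moved widely between fits. Fasl lay below the filter and was not tested. The groups did not overlap for 1 gene standing higher (6.48% of all genes tested) and 5 standing lower (8.84%), counts from which nothing is read because the genes were chosen on this comparison.

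**Figure D1:**
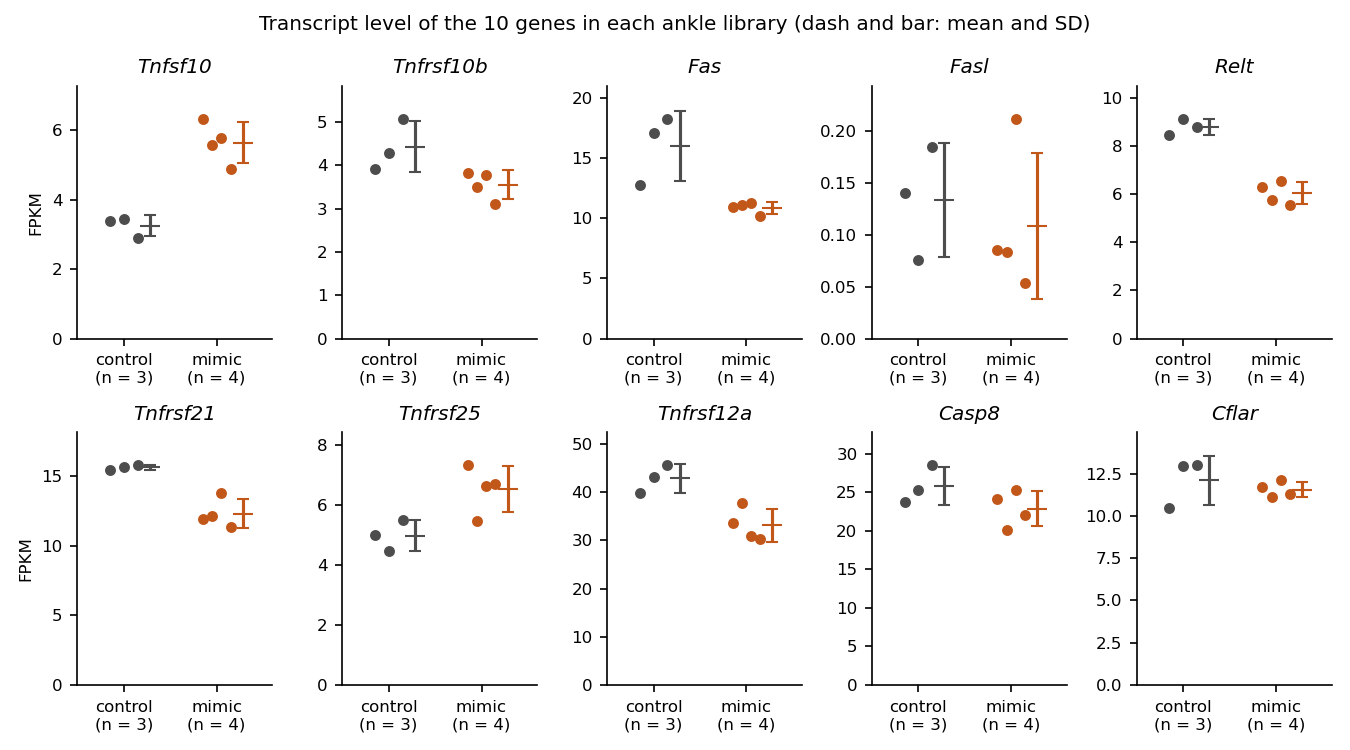
FPKM of each gene (vertical axes, each starting at 0) in the 3 control and 4 mimic libraries (points, in order of replicate number), with the mean and SD beside them. Tnfsf10 lies between 4.89 and 6.32 FPKM in mimic ankles and between 2.90 and 3.45 in controls, while Relt lies between 5.57 and 6.55 in mimic ankles and between 8.45 and 9.14 in controls.

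The depth was similar across libraries, from 27465276 to 31118975 assigned reads. Each library's value of the genes tested here rested on between 196 reads (Tnfrsf25, control 3) and 3128 reads (Cflar, control 5). Markers of fibroblasts, macrophages, neutrophils, muscle, fat, osteoclasts, endothelium, red cells and lymphocytes were all detected, as a whole ankle would hold, and 0 markers found in the table were at 0 in every library. In such bulk tissue, fewer cells of a type and less transcript per cell cannot be told apart. Leaving out control replicate 2 raised the number of genes called by limma from 0 to 317, so values without that library are given beside the results it changes.

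Tnfsf10 (mm10 chromosome 3, 27317077 to 27339665, plus strand), the gene of the TRAIL ligand, is induced by interferons in many cell types. It stood at 3.40, 3.45 and 2.90 FPKM in control replicates 2, 3 and 5. In mimic replicates 1, 2, 4 and 5 it stood at 6.32, 5.56, 5.78 and 4.89 FPKM. Every mimic library was above every control library, with control replicate 5 and mimic replicate 5 the lowest of their groups. The ratio of the means was 1.74, and the log2 fold change was 0.71 (SE 0.10, limma adjusted p = 0.173). Without control replicate 2, the only fit in which Tnfsf10 passed the threshold, it was 0.74 (limma adjusted p = 0.0418).

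A list of 18 interferon-stimulated genes moved with Tnfsf10 between the groups. Summed over the list, the level was 321, 394 and 465 FPKM in control replicates 2, 3 and 5 and 849, 817, 1057 and 550 FPKM in mimic replicates 1, 2, 4 and 5. The mean was higher in the mimic group for all 18, and their median log2 fold change was 0.90 against -0.01 over all genes tested, and 0 of the 18 passed over all genes. Those with the smallest p were Xaf1 (0.96), Gbp3 (0.91) and Ifit3 (1.39, log2 fold changes). Within the controls the orders differed, since replicate 5 had the highest sum and the lowest Tnfsf10. Within the mimic ankles replicate 5 was the lowest for both, while the highest was replicate 1 for Tnfsf10 and replicate 4 for the sum. The part of the interferon-stimulated genes in the Tnfsf10 difference was not tested.

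Tnfrsf10b (chromosome 14, 69767472 to 69784411, plus strand) encodes the only death-domain receptor for TRAIL in the mouse. Its FPKM values were 3.92, 4.28 and 5.07 in the controls and 3.83, 3.51, 3.78 and 3.11 in the mimic ankles. The groups did not overlap, but the lowest control and the highest mimic library lay close together. The log2 fold change was -0.28 (SE 0.11), and it ranged from -0.35 to -0.19 when single libraries were left out. The mouse also has receptors for TRAIL without a functional death domain, Tnfrsf22 and Tnfrsf23. Tnfrsf23 had a mean of 15.2 ± 1.88 FPKM in the control group and 11.7 ± 0.58 in the mimic group, a log2 fold change of -0.37 (SE 0.088), and Tnfrsf22 had 2.02 ± 0.084 and 1.73 ± 0.15 FPKM. For both, every mimic library lay below every control library.

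The ligand stood higher and its receptor lower. The ratio of Tnfsf10 to Tnfrsf10b FPKM within a library therefore differed more between the groups than either gene did, which is no separate result. The ratio was 0.867, 0.805 and 0.572 in the controls and 1.65, 1.59, 1.53 and 1.57 in the mimic ankles. The ligand transcript was thus the less abundant of the pair, per length, in 3 of 3 control libraries and the more abundant in 4 of 4 mimic libraries. The means were 0.748 ± 0.155 and 1.59 ± 0.051 (SD).

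**Figure D2:**
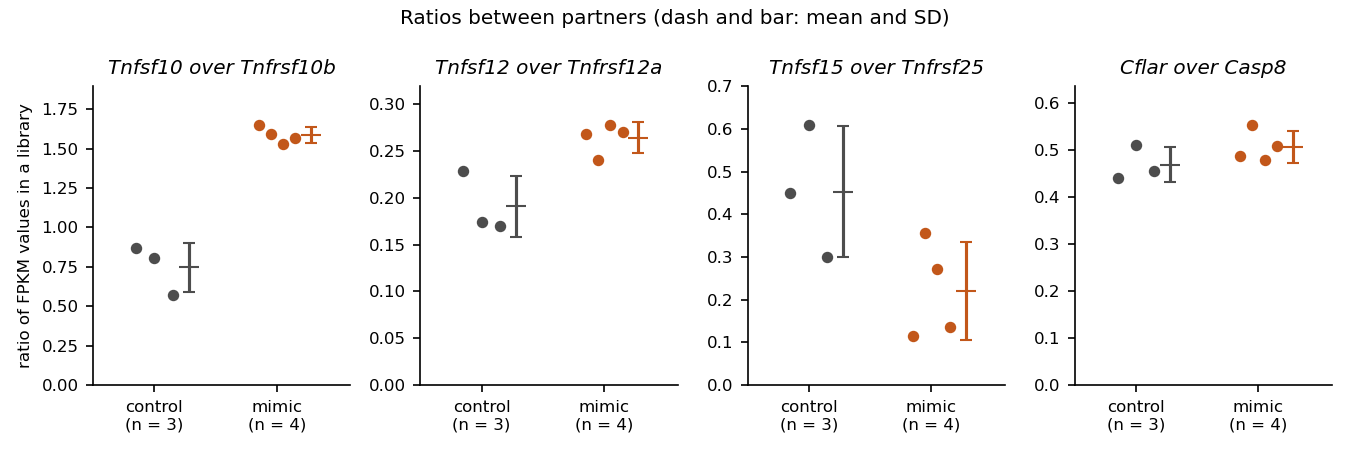
Ratio of the FPKM values of 2 partners within each library (points; vertical axes start at 0), with mean and SD, for Tnfsf10 over Tnfrsf10b, Tnfsf12 over Tnfrsf12a, Tnfsf15 over Tnfrsf25 and Cflar over Casp8. The first ratio lies from 1.53 to 1.65 in mimic and from 0.572 to 0.867 in control ankles, and the last overlaps between the groups.

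Fas (chromosome 19, 34290659 to 34327770, plus strand), the death receptor of activated lymphocytes, fibroblasts and many other cells, had the lowest log2 fold change of the genes tested here. It stood at 12.8, 17.1 and 18.3 FPKM in control replicates 2, 3 and 5 and at 10.96, 11.1, 11.3 and 10.2 FPKM in mimic replicates 1, 2, 4 and 5. The mimic libraries lay close together and below every control library, whereas the controls were spread, with replicate 2 nearest to the mimic group. On the log2 scale the difference was -0.53 (SE 0.12, limma adjusted p = 0.174). Without control replicate 2, the only fit in which Fas passed, it was -0.68 (limma adjusted p = 0.0219). With the mean of the skeletal muscle markers as a covariate it was -0.39.

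Fasl (chromosome 1, 161780691 to 161788495, minus strand), the Fas ligand of T and NK cells, was barely detected. It had 8, 4 and 11 reads in the controls and 5, 5, 12 and 3 in the mimic ankles, or between 0.053 and 0.21 FPKM, with overlapping groups. A difference was not detectable at this depth. The T and NK cell markers summed to between 30.1 and 38.9 FPKM in the control group and between 21.5 and 41.8 FPKM in the mimic group, also overlapping, with 0 of 14 markers at 0 in every library. Per length, Fas exceeded Fasl in 7 of 7 libraries.

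Relt (chromosome 7, 100845848 to 100863413, minus strand) encodes a TNF receptor without a death domain that is found mainly in blood-forming and lymphoid tissue. Its FPKM values were 8.45, 9.14 and 8.82 in the controls and 6.31, 5.77, 6.55 and 5.57 in the mimic ankles. The groups were well apart, and the spread within each was small. This gave a log2 fold change of -0.51 (SE 0.072), and -0.54 (limma adjusted p = 0.0403) without control replicate 2. Across fits without 1 library it lay between -0.54 and -0.47. Neutrophil markers were lower on average as well, summing to between 3213 and 6567 FPKM in the control group and between 1376 and 3541 FPKM in the mimic group, and 12 of 12 had a lower mean, with 0 at 0. With the neutrophil marker mean as a covariate the Relt difference was -0.43. Macrophage and monocyte markers summed to between 2653 and 3281 FPKM in the control group and between 2176 and 3206 FPKM in the mimic group, with 8 of 12 lower and 0 at 0, and their part in the Relt difference was not tested.

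The RELT-like genes and the kinases known to bind RELT differed less. Rell1, a RELT relative, had 17.2 ± 1.47 FPKM in the control group and 15.6 ± 0.89 in the mimic group, with overlapping groups, and Rell2 lay at 0.353 and 0.435 FPKM, below the filter. Stk39, which encodes the kinase SPAK, had 8.001 ± 0.76 and 6.73 ± 0.12 FPKM, a log2 fold change of -0.23 (SE 0.072) with groups apart. Oxsr1, a related kinase, had 11.6 ± 0.75 and 11.9 ± 0.56 FPKM, with groups overlapping. The median of the 3 tested was -0.13, or -0.072 without control replicate 2 and -0.23 with the replicate block.

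Tnfrsf21 (chromosome 17, 43016555 to 43089188, plus strand) encodes death receptor 6, known from axon pruning and from the restraint of lymphocyte responses. The controls lay at 15.5, 15.6 and 15.8 FPKM, and the mimic ankles at 11.9, 12.1, 13.8 and 11.3 FPKM. The 3 control values were nearly the same, and all 4 mimic values were below them, with mimic replicate 4 the highest. On the log2 scale the difference was -0.34 (SE 0.072), between -0.39 and -0.30 when single libraries were left out.

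Tnfrsf12a (chromosome 17, 23675445 to 23677449, minus strand) encodes Fn14, the receptor of the cytokine TWEAK, which is induced in injured and inflamed tissue. It was the most abundant of the 10 genes, with 39.8, 43.2 and 45.6 FPKM in control and 33.6, 37.8, 30.9 and 30.4 FPKM in mimic ankles. All mimic libraries were below all controls, and mimic replicate 2 came nearest to them. Its log2 fold change was -0.37 (SE 0.091). Of its exon positions, 80 bases are shared with Hcfc1r1 on the opposite strand, and since no source here gives the strand setting of the counting, reads there could belong to either gene. Tnfsf12, the gene of TWEAK, had 8.12 ± 0.85 and 8.73 ± 0.40 FPKM, with overlapping groups. The ratio of Tnfsf12 to Tnfrsf12a was 0.229, 0.174 and 0.170 in the controls and 0.268, 0.241, 0.278 and 0.271 in the mimic ankles. These groups did not overlap, which is no separate result, because the ratio contains Tnfrsf12a, whose own groups lay apart.

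Tnfrsf25 (chromosome 4, 152116343 to 152120111, plus strand), a death-domain receptor found mainly on T cells, was the 1 receptor among the 6 with a higher mean in the mimic ankles. It stood at 4.99, 4.45 and 5.50 FPKM in control and at 7.32, 5.47, 6.64 and 6.70 FPKM in mimic ankles. The groups overlapped narrowly, as mimic replicate 2 lay just below control replicate 5. The log2 fold change was 0.36 (SE 0.11), or 0.19 with the replicate block. The T and NK cell markers tested had log2 fold changes below 0 in 11 of 11 cases (median -0.17 on the log2(FPKM + 0.5) scale), none of them at an unadjusted p under 0.05. The mean of Gzmb was nevertheless 1.84 FPKM in the control and 1.86 FPKM in the mimic group. Tnfsf15, the gene of its ligand, had 2.202 ± 0.53 FPKM in the control group and 1.38 ± 0.58 in the mimic group, with overlapping groups.

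**Figure D3:**
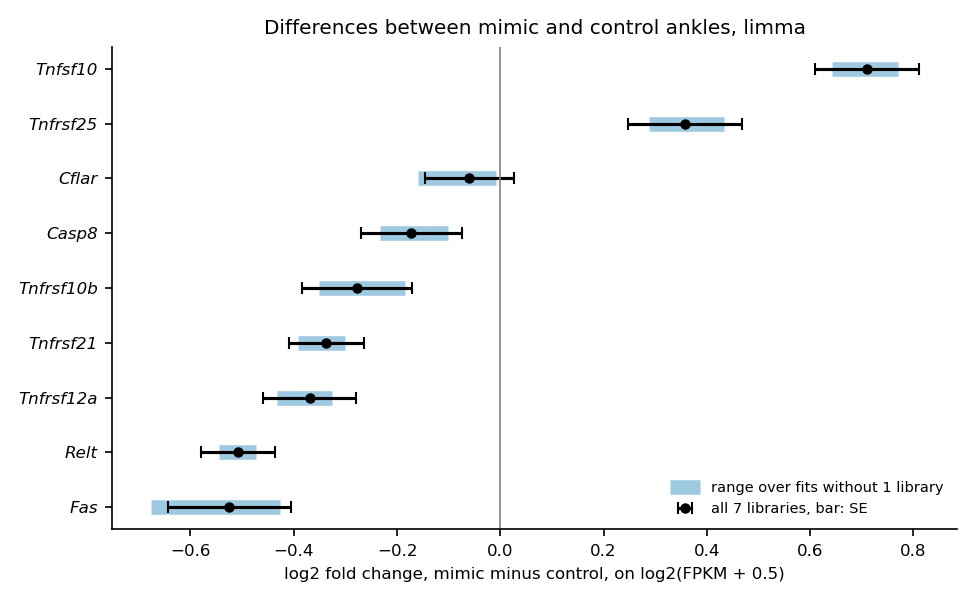
Log2 fold change (mimic minus control, horizontal axis, on log2(FPKM + 0.5)) of the 9 genes tested, with the SE from limma as a bar and, as a band, the range over the 7 fits that each left out 1 library. Tnfsf10 (0.71) and Tnfrsf25 (0.36) lie above 0, Fas (-0.53) and Relt (-0.51) lie lowest, and Cflar (-0.06) lies within its SE of 0.

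Below the receptors, Casp8 (chromosome 1, 58795374 to 58847503, plus strand), the caspase that starts the cascade, had 23.7, 25.3 and 28.5 FPKM in the controls and 24.1, 20.1, 25.3 and 22.1 FPKM in the mimic ankles. The log2 fold change was -0.17 (SE 0.098), and the groups overlapped. It was -0.10 without control replicate 5, -0.11 without mimic replicate 2, -0.058 with the muscle marker mean as a covariate and -0.30 when replicate numbers were blocked. Cflar (chromosome 1, 58713286 to 58758884, plus strand), its neighbour on the chromosome, had 10.5, 12.9 and 13.0 FPKM in the controls and 11.7, 11.1, 12.1 and 11.3 FPKM in the mimic ankles. Here control replicate 2 was below all other libraries, and the log2 fold change was -0.06 (SE 0.086). It was -0.16 without that library, -0.012 without control replicate 3 and -0.009 without control replicate 5, turning to 0.013 with the neutrophil and 0.031 with the muscle marker mean as a covariate. The ratio of Cflar to Casp8 was 0.441, 0.511 and 0.456 in the controls and 0.487, 0.554, 0.479 and 0.510 in the mimic ankles, with overlapping groups. Casp8 was the more abundant transcript per length in 7 of 7 libraries.

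Ordered by mean FPKM over the 7 libraries, the genes ran from Tnfrsf12a (37.3) and Casp8 (24.2) through Tnfrsf21 (13.7), Fas (13.1), Cflar (11.8), Relt (7.23), Tnfrsf25 (5.87), Tnfsf10 (4.62) and Tnfrsf10b (3.93) to Fasl (0.119). The ranges over the libraries did not overlap between Tnfrsf12a and Casp8, between Casp8 and Tnfrsf21, between Cflar and Relt, or between Tnfrsf10b and Fasl. The other neighbours in this order overlapped. The means of Tnfsf10 and Tnfrsf10b changed places between the groups, since in the controls the receptor stood above the ligand. Tnfrsf12a lay above 84.9% of the genes tested and Tnfrsf10b above 22.9%.

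Within the groups the genes also varied together to different degrees. For the deviations of each library from its group mean (log2 scale, 7 libraries that share depth and tissue makeup with each other's values), Pearson's r was 0.93 between Fas and Cflar, 0.78 between Fas and Tnfrsf10b, 0.77 between Relt and Tnfrsf21 and 0.72 between Casp8 and Cflar. Between Tnfsf10 and Fas it was -0.15, and between Tnfsf10 and Relt 0.60. Control replicate 2 was low for Fas (-0.30) and Cflar (-0.20), and mimic replicate 5 was low for Tnfsf10 (-0.18), Tnfrsf10b (-0.16) and Relt (-0.11). Among 9316 genes that averaged 5 FPKM or more, those most like Tnfsf10 in these deviations were Angptl2, Cd34, Pcif1, Nupr1 and Fgfr1, with r from 0.974 to 0.980. Those most like Relt, among 9315 genes, were Ctse, Ly6c2, Slc25a37, Xdh and Galnt11, with r from 0.985 to 0.996. Above 0.9 lay 43 of the 9316 genes for Tnfsf10 and 190 of the 9315 for Relt. The genes named are the highest of so many over only 7 libraries, so their r is high by selection.

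For each gene the longest 3 prime UTR in GENCODE M21 (GRCm38) was scanned for letters that pair with the miR-17-5p seed. The letters were GCACTTTA (8mer), GCACTTT (7mer-m8), CACTTTA (7mer-A1) and CACTTT (6mer), each on the transcript strand and counted once as the longest form. Of the 10 genes, 2 held an 8mer or a 7mer, compared with 18.6% of 21010 genes with a UTR and 21.4% of the 12489 tested genes with one. Tnfrsf21 held 2 8mers, and 29 of the 21010 genes (0.14%) held 2 or more. Casp8 held 1 7mer-m8. The sites are shown because these are the only matches of at least 7 bases among the 10 genes, with the match in capitals.
Tnfrsf21, chr17:43088296-43088303, plus strand: cactattctgtGCACTTTAaaaacttaaca
Tnfrsf21, chr17:43088825-43088832, plus strand: aagtgccagtgGCACTTTAtgcccagcttt
Casp8, chr1:58846792-58846798, plus strand: ggcttatctgtGCACTTTtgtgtggatgag
The sites in Tnfrsf21 start 324 and 853 bases into a UTR of 1217 bases, and that in Casp8 starts at base 38 of 749. Beside them stand the differences given above, -0.34 for Tnfrsf21 and -0.17 for Casp8. Among the tested genes without an 8mer or 7mer, the differences were -0.53 for Fas, -0.51 for Relt and -0.37 for Tnfrsf12a. They were -0.28 for Tnfrsf10b, -0.06 for Cflar, 0.36 for Tnfrsf25 and 0.71 for Tnfsf10. Relt, Fas, Tnfrsf12a and Fasl held no match of the kinds searched. Tnfsf10, Cflar and Tnfrsf25, with UTRs of 3998, 4962 and 280 bases, held 2 6mers each, and Tnfrsf10b and Tnfrsf21 held 1 each. A match is a description of the sequence, and binding was not measured.

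**Figure D4:**
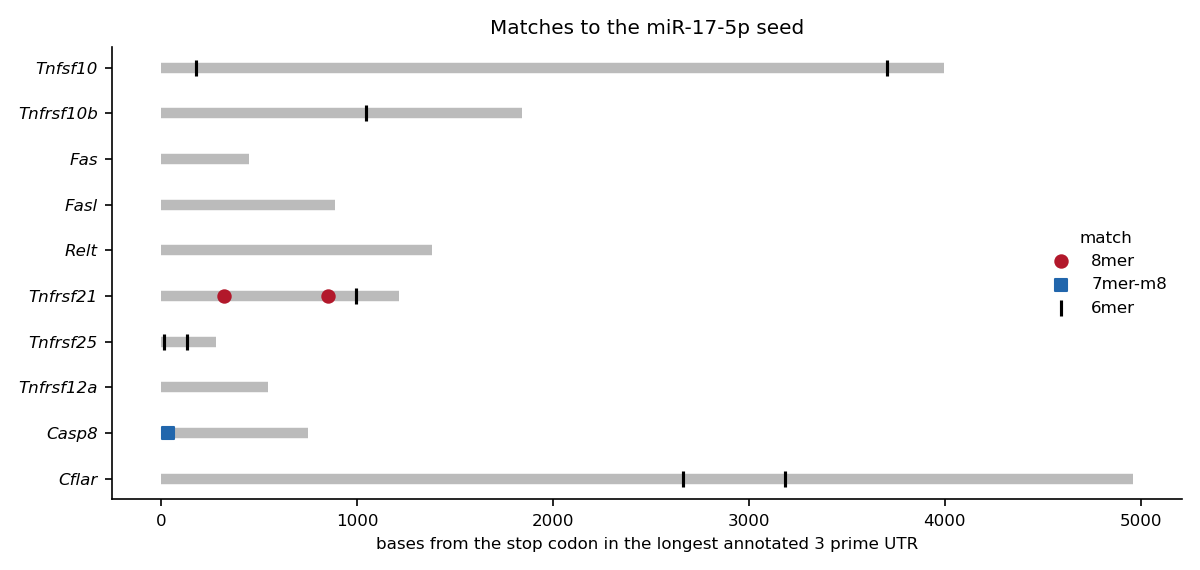
Position of matches to the miR-17-5p seed (markers by kind) along the longest 3 prime UTR annotated for a gene (grey bars, in bases from the stop codon). Both 8mers lie in Tnfrsf21 and the single 7mer-m8 in Casp8, whereas Relt, Fas, Fasl and Tnfrsf12a have no marker.

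Promoters, from 250 bases before to 50 after the annotated start (RefSeq, GRCm38.p6), were found for 9 of the 10 genes, with 2 starts for Tnfrsf25. They were searched on both strands for the core of the interferon-stimulated response element (GAAA, NN, then GAAA), a STAT site (TTC, NNN, then GAA) and an NF-kB site (GGGA, NN, then TTCC). These letters occur in 3.44%, 8.30% and 1.47% of 32851 promoters. The STAT letters were found in Fas, from 93 to 85 bases before the start, and in the second Tnfrsf25 promoter, from 16 to 8 bases before it. The letters of the response element were found in Cflar, 6 to 15 bases after the start. The annotated start is not always the end of the gene span given above. The Cflar window (chr1:58711241-58711540) lies before that span, and the Casp8 window (chr1:58802252-58802551) lies within it. None of the promoters searched for these 9 genes held the NF-kB letters. Tnfrsf10b was not searched. Tnfsf10 and Fas are printed below because they had the highest and the lowest fold change, with the STAT letters in capitals.
Tnfsf10, chr3:27316827-27317126, plus strand: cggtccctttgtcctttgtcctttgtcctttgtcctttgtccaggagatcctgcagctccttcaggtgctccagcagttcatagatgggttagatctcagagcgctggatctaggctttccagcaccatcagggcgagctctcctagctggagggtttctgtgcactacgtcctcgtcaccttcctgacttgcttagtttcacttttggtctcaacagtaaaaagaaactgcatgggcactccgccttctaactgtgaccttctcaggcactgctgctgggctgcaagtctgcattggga
Fas, chr19:34290409-34290708, plus strand: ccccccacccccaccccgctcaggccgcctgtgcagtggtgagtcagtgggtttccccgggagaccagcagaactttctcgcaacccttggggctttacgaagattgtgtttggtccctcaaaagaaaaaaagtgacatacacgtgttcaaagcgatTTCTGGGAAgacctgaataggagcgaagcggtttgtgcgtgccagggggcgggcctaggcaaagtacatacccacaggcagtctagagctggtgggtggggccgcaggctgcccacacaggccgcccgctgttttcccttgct
The Tnfsf10 window held none of the letters searched, which says no more than that these letters are not in this window.

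The other genes of the death pathway were examined through lists chosen for their roles. Of 18 adaptors, kinases and ubiquitin enzymes of death receptor complexes, all 18 were tested, 0 passed, 3 stood lower and 1 higher with groups apart (8.84% and 6.48% of all genes tested), and the median log2 fold change was -0.09, or -0.18 with the replicate number as a block. Birc3, an inhibitor of apoptosis protein and NF-kB target, had 26.9 ± 3.95 FPKM in the control group and 18.6 ± 1.82 in the mimic group, a log2 fold change of -0.52 (SE 0.12). Tnfaip3, which encodes the ubiquitin-editing enzyme that limits NF-kB signalling, had 8.26 ± 0.52 and 6.43 ± 0.76 FPKM, and Cyld, a deubiquitinase, 6.36 ± 0.081 and 5.94 ± 0.14 FPKM. Rbck1, a subunit of the linear ubiquitin ligase, was the 1 gene apart in the other direction, at 36.9 ± 1.41 and 40.9 ± 1.90 FPKM. Fadd, the adaptor itself, had 5.77 ± 0.37 and 5.48 ± 0.30 FPKM, and the kinase gene Ripk1 had 15.6 ± 0.96 and 14.6 ± 1.39 FPKM, both with overlapping groups. Ripk3, the kinase of necroptosis, had 23.1 ± 4.58 and 17.0 ± 2.87 FPKM, also overlapping.

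The list of caspases and the mitochondrial branch of cell death differed little. All 22 members were tested, 0 passed, and the median log2 fold change was -0.10. It was -0.045 without control replicate 5, -0.042 without mimic replicate 5 and -0.065 without mimic replicate 2. Bid, which links caspase-8 to the mitochondrion, had 11.5 ± 0.81 FPKM in the control group and 10.1 ± 1.49 in the mimic group. Xiap, an inhibitor of caspases, had 14.1 ± 1.69 and 13.2 ± 0.99 FPKM. The groups overlapped for both genes. Bax, which permeabilises the mitochondrial membrane, was the 1 member of 22 with groups apart (8.84% of all genes tested stood lower in this way), at 72.1 ± 4.52 and 64.3 ± 4.95 FPKM. For Mcl1, a survival protein of the BCL2 family, the log2 fold change was -0.26 (SE 0.10), as it was for Apaf1, the scaffold of the apoptosome (SE 0.11), both with overlapping groups. Of 12 targets of p53, a factor that also induces Fas and Tnfrsf10b, 11 were tested, 0 passed and the median was 0.05. Without control replicate 2 the median was -0.0. Mdm2, the ubiquitin ligase of p53, had 22.0 ± 0.47 and 20.2 ± 0.62 FPKM with groups apart, while Cdkn1a and Sesn2 had log2 fold changes of -0.23 each, with groups overlapping.

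Among the other TNF superfamily ligands 9 of 16 passed the filter on low values, and 0 passed the test. With groups apart, 2 stood lower and 0 higher (8.84% and 6.48% of all genes tested). The median log2 fold change was -0.43, or -0.56 without control replicate 2 and -0.18 without control replicate 5. Tnfsf14, which encodes LIGHT, stood at 4.64, 8.99 and 9.47 FPKM in the controls and at 3.15, 2.65, 3.63 and 2.43 FPKM in the mimic ankles. Its log2 fold change was -1.20 (SE 0.24), with groups apart. Tnfsf9, a costimulatory ligand, had 2.88 ± 1.07 and 1.94 ± 0.13 FPKM, also apart. Tnfsf11, the osteoclast-forming ligand RANKL, had a log2 fold change of -0.73 (SE 0.31), with overlapping groups. Among the other TNF receptors 17 of 22 were tested, 0 passed, 4 stood lower with groups apart and 0 higher (8.84% and 6.48% of all genes tested), and the median was -0.18, or -0.27 with the replicate block. Tnfrsf1a, the main TNF receptor and itself a death-domain protein, had 123 ± 7.63 FPKM in the control group and 106 ± 3.20 in the mimic group, and Ltbr, the lymphotoxin beta receptor, 61.1 ± 1.18 and 53.2 ± 1.90 FPKM. Each of these lists is described by its counts and its median alone, beside the median of -0.01 over all genes tested.

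**Figure D5:**
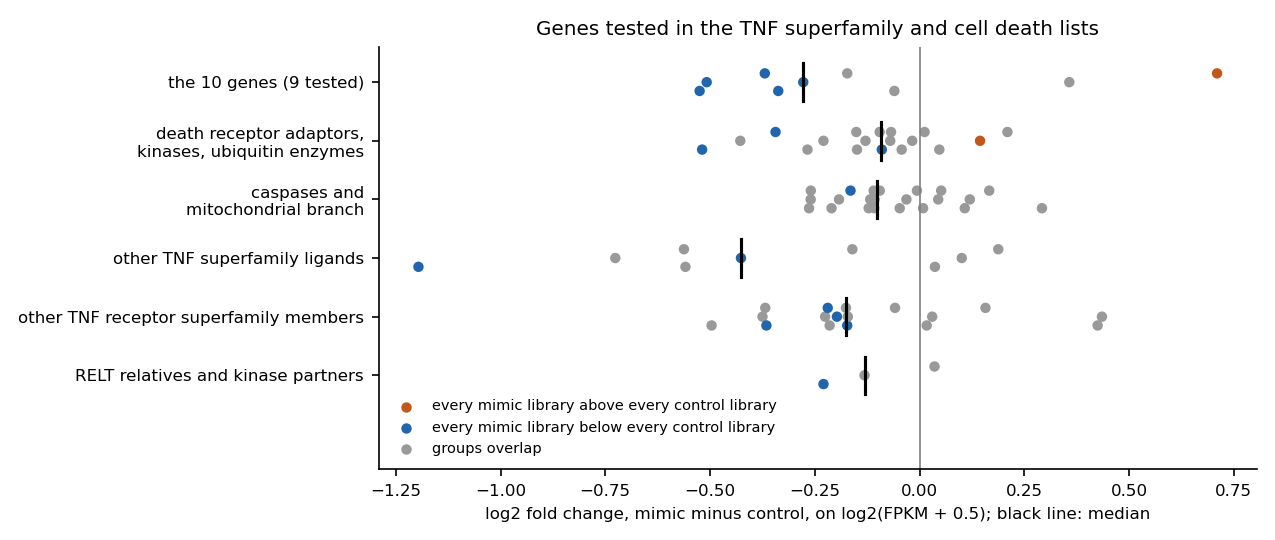
Log2 fold change (mimic minus control, horizontal axis) of each tested gene (points) in the 10 genes described here and in 5 lists of related genes (rows), coloured by whether the groups overlap, with the list median as a black line. The medians are -0.28, -0.09, -0.10, -0.43, -0.18 and -0.13 from top to bottom, with all 7 libraries and no block, and Tnfsf10 is the rightmost point of the top row.

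Of the 10 genes, 3 passed over all genes when control replicate 2 was left out, Tnfsf10 higher (0.857% of 13422 genes were called higher) and Fas and Relt lower (1.5% were called lower). In the 6 fits that left out another library 0 of them passed. Markers of other tissues differed between libraries as well. Muscle markers summed to between 1108 and 6705 FPKM in the control group and between 2672 and 9920 FPKM in the mimic group, with overlapping groups and 10 of 10 higher on average. Fat markers summed to between 582 and 1028 FPKM in the control group and between 1137 and 1485 FPKM in the mimic group, with 8 of 8 higher, and osteoclast markers to between 2601 and 2748 and between 2068 and 2279 FPKM, with 7 of 7 tested lower. For these 2 lists the groups did not overlap, and 0 of their markers were at 0 in every library. Immediate early genes summed to between 450 and 614 FPKM in the control group and between 248 and 431 FPKM in the mimic group, with 9 of 10 lower. Those with the smallest p were Ier2 (-0.65), Junb (-0.83) and Ier3 (-0.78, log2 fold changes). This choice by p is not a ranking by size. Egr1, with means of 57.2 FPKM in the control and 29.5 FPKM in the mimic group, is not among them. Endothelial markers (321 to 376 and 365 to 403 FPKM), fibroblast markers (11790 to 13610 and 12930 to 13920 FPKM), B cell markers (22.7 to 27.8 and 18.1 to 56.2 FPKM) and red cell markers (53.1 to 208 and 80.2 to 558 FPKM) overlapped between control and mimic ankles. The part of the fat, osteoclast and immediate early genes in the differences of the death receptors was not tested. With the muscle marker mean as a covariate the log2 fold changes were 0.71 for Tnfsf10, 0.45 for Tnfrsf25 and -0.46 for Relt. They were -0.31 for Tnfrsf21, -0.32 for Tnfrsf12a and -0.14 for Tnfrsf10b. With the neutrophil marker mean they were 0.81 for Tnfsf10, 0.33 for Tnfrsf25, -0.42 for Fas and -0.285 for Tnfrsf21. In that fit Tnfrsf12a had -0.33, Tnfrsf10b -0.20 and Casp8 -0.12.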

How the data were processed

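Ankle RNA of 7 samples was sequenced, and the authors deposited an FPKM value for every gene in each library, per the labels, together with exon positions and a joined exon length. Tools listed without roles in the submitters' processing notes were DESeq2 1.14.1, STAR 2.5.2b, Subread with featureCounts, and bcl2fastq 2.20, on mm10 (GRCm38). Strand setting, kit and annotation release are not given in any source used. Symbols came from a RefSeq table of GRCm38.p6 (25275 of 27179 Entrez numbers matched). Read counts were recovered because, in every library, FPKM times length came out as whole reads (100% of values, tolerance 0.01), with totals from 27465276 to 31118975.

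Groups were compared with limma 3.58.1 in R 4.3.3 (eBayes with a trend) on log2(FPKM + 0.5), which understates changes of low genes, for genes averaging 1 FPKM or more, 2-sided, with Benjamini-Hochberg adjustment. The test was checked on simulated data in which errors were independent between genes. That check does not cover deviations shared by the genes of a library. The genes, lists, partners and rules were chosen with earlier results of these data known. Named from each list were the 3 genes with the smallest p and up to 3 more with groups apart, beside fixed partners, of which some are not reported here. Tables and figures used Python 3.11.15, pandas 2.3.3 and matplotlib 3.10.9. Alternatives were pseudocounts of 0.1 and 1, no filter or one at 5 FPKM, scaling by median of ratios, no trend, limma-voom on recovered reads, a replicate block, neutrophil or muscle marker means as covariates, and leaving out each library. Replicate numbers 2 and 5 occur in both groups, and nothing in the labels says that they mark a shared animal or day.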

Additional observations from a re-analysis of the deposited data

Results flagged for a closer look

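Rell1, the RELT relative, stood at 14.3 FPKM in mimic replicate 5, apart from the other 3 mimic ankles by more of the group's range than Dixon's 95% limit for 4 samples allows. Such a value is found in about 1 in 20 groups by chance, and 1 was found among the 10 genes and their 13 partners.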

How the results depend on the processing

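The limma count over all genes, 0 higher and 0 lower, became 115 higher and 202 lower without control replicate 2, with 1 of the described genes higher and 2 lower. Over the fits without 1 library these counts ranged from 0 to 115 higher, 0 to 202 lower, 0 to 1 and 0 to 2. It was 1 higher with the neutrophil covariate (Iigp1), 2 higher without mimic replicate 5 (Apol9b and Ifit3) and 1 lower with no filter on low values (Scarna2), genes chosen after their values were seen. The cause was not tested. Cflar turned from -0.06 to 0.013 with the neutrophil and to 0.031 with the muscle covariate, and no other described gene changed sign in any setting. With the replicate block 0 genes passed and the differences were 0.65 for Tnfsf10, -0.50 for Fas, -0.57 for Relt, -0.40 for Tnfrsf21, -0.33 for Tnfrsf12a, -0.38 for Tnfrsf10b, 0.19 for Tnfrsf25 (0.36 without it), -0.30 for Casp8 (-0.17 without it) and -0.055 for Cflar. Same-numbered libraries deviated together for number 2 (r = 0.54 over genes) and apart for number 5 (r = -0.43), so the numbers were not taken to pair the samples. The block changed no call, and rests on numbers 2 and 5 alone. The p53 median turned from 0.05 to -0.12 with the filter at 5 FPKM, to -0.02 with the block and to -0.02 without mimic replicate 1. It was -0.0 without control replicate 2. Depth limits Fasl, which had from 3 to 12 reads in a library.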
